A study of Mus musculus with 3 samples.

Results

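*Col4a1*, *Col4a2*, *Col4a3*, and *Col6a1* are the type IV and type VI collagen genes among the 84 extracellular matrix (ECM) genes that the study listed with mm9 positions, and all 4 are described here. A peak was assigned to a gene when that gene had the nearest transcription start site (TSS) of the 84 and the peak edge lay within 100 kb. A peak within 2.5 kb of a TSS was called a promoter peak, and one farther away a distal peak. At 2 months, 11 of the 237 peaks assigned to any ECM gene fell to these 4 genes in this way. At 10 months there were 6 of 390 such peaks, and 13 of 526 at 20 months.

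H3K27ac, a histone mark of active promoters and enhancers, was profiled by ChIP-seq in the tibialis anterior (TA), a muscle of the lower leg, during muscle aging. The mice were of the C57/BL6 strain at 2, 10, and 20 months of age, with no further treatment named, and the antibody in every library was Abcam ab4729. Each age has 1 library, and whether several animals were pooled in it is not given in the sources used here. The methods give the middle age as a range that begins at 10 months, and the extraction protocol in the labels speaks of activated satellite cells and of RNA although the tissue label is TA muscle. Positions of myofiber genes were not used here, so the tissue was not checked against myofiber markers. In whole muscle, fewer cells of a type and less signal per cell cannot be told apart.

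Type IV collagen forms the sheet-like network of basement membranes, which wrap each myofiber, capillary, and nerve ending. The α1 and α2 chains, encoded by *Col4a1* and *Col4a2*, make up its widespread form, and their genes lie head to head and are transcribed away from a shared promoter. The α3 chain, encoded by *Col4a3*, belongs to specialized basement membranes such as that of the kidney glomerulus, and its gene lies head to head with *Col4a4*. Type VI collagen, of which *Col6a1* encodes the α1 chain, forms beaded microfibrils that tie the basement membrane to the interstitial matrix. It is made mainly by fibroblasts in muscle, and mutations in its genes cause Ullrich and Bethlem muscular dystrophies.

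The libraries held 15933343, 18888715, and 26302098 uniquely mapped reads at 2, 10, and 20 months, and the deposited lists held 17884, 35221, and 44752 peaks. The reads piled up at each peak summit were solved from the deposited fold and −log10 p, and the level of a peak is this number over the genome mean coverage of its library (1.26, 2.24, and 2.5 reads). Median levels over all peaks were 11.1, 15.6, and 14.0. At 2 months, 78.3% of peaks were called against a background at the genome mean, compared with 2.87% and 4.89% at the later ages, where the background was set by the reads in the 10 kb around the summit. The lists thus differ in the reads that a call required. With a background at the genome mean, at least 8, 10, and 10 reads were needed, that is 6.34, 4.46, and 3.99 times the genome mean, and more were needed where the surroundings were rich in reads. Intervals are exact 95% intervals for counting error alone, and reads from PCR-amplified libraries are not independent molecules. As each age has 1 library, no difference between ages has a replicate check and no p-value is given.

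*Col4a1* and *Col4a2* carried H3K27ac at their shared promoter at every age, *Col4a3* had a promoter peak at 20 months only, and *Col6a1* had none. Counted by the TSS of each gene itself, 2, 2, and 3 of the 4 genes had a promoter peak at 2, 10, and 20 months, beside 26.2%, 35.7%, and 50% of the 84 ECM genes. Distal peaks were assigned to *Col4a1* and *Col6a1* at each age and to neither *Col4a2* nor *Col4a3*. Thus 2 of the 4 genes had a distal peak at every age, beside 48.8%, 67.9%, and 75% of the ECM genes. The distal peaks of the 4 genes numbered 5, 5, and 10, beside 194, 348, and 458 for the 84 genes.

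The 2 genes with distal peaks differed in their course. *Col6a1* had 1 distal peak at 2 months, and this number rose to 4 in the 10-month library and to 7 in the 20-month library. More distal peaks than at 2 months were found for 57.1% of the ECM genes at 10 months and for 67.9% at 20 months, so that *Col6a1* moved as most of the list did. This direction was lost in lists cut by q to the length of the shortest, where *Col6a1* had 1, 0, and 0 distal peaks. In the better 50% of each list by q it had 0, 0, and 2, so that only the rise at 20 months remained. For *Col4a1*, 4 distal peaks at 2 months were followed by 1 in the 10-month and 3 in the 20-month library. Fewer distal peaks than at 2 months were found for 6 of the 84 genes at 10 months (7.14%) and for 2 at 20 months (2.38%), and *Col4a1* was among them at both ages. Between 10 and 20 months both genes gained distal peaks, as did 56% of the ECM genes, whereas 8.33% lost some. The bar plot of distal peaks by assignment rule shows how far the count of *Col4a1* rests on the rule.

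**Figure D1:**
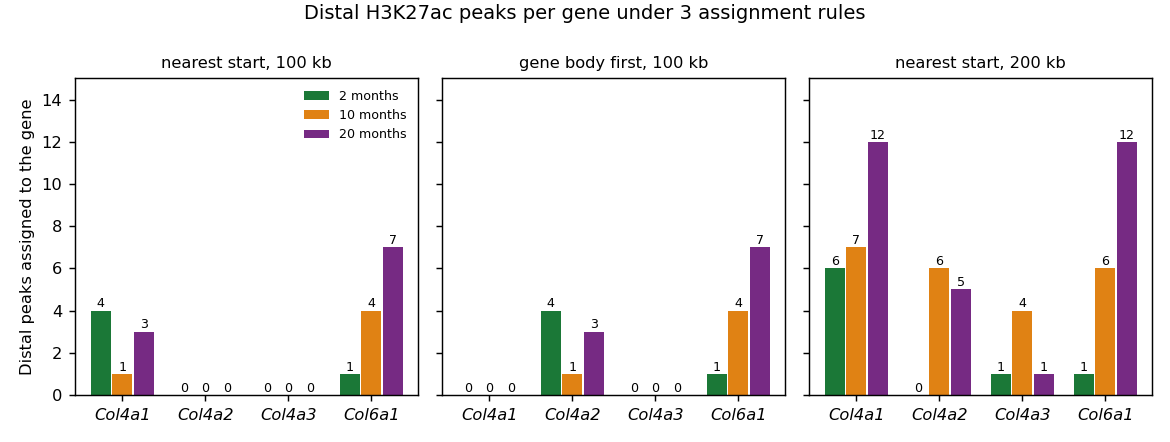
Number of distal H3K27ac peaks (vertical axis) assigned to each of the 4 genes in the 2-, 10-, and 20-month libraries (colors), under the nearest-TSS rule within 100 kb (left), with peaks inside a gene body given to that gene first (middle), and with the nearest-TSS rule within 200 kb (right). *Col4a1* has 4, 1, and 3 peaks in the left panel, 0 in the middle panel, and 6, 7, and 12 in the right panel, while *Col6a1* has more at each later age in all 3 panels.

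Every distal peak assigned to *Col4a1* lay inside the body of *Col4a2*. On mm9 chromosome 8, *Col4a1* runs on the minus strand from 11312826 down to 11198423, *Col4a2* runs on the plus strand from 11312805 to 11449287, and the transcripts overlap by 22 bp at their starts. A peak on the *Col4a2* side is therefore nearer to the TSS of *Col4a1*, by 21 bp, than to that of *Col4a2*. When a peak inside a gene body was given to that gene, *Col4a2* had 4, 1, and 3 distal peaks and *Col4a1* had 0, 0, and 0. In the 114 kb of the *Col4a1* body no peak beyond the promoter was found at any age, whereas the 136 kb of the *Col4a2* body held 4, 3, and 6 such peaks at any distance from the start. The deposited lists hold only regions past the calling threshold, so that weaker signal in the *Col4a1* body would not appear in them.

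The decrease was also tied to the 100-kb limit. Within 100 kb of the shared start there were 10, 2, and 5 peaks at 2, 10, and 20 months, promoter peaks included, while the median ECM gene had 1, 4, and 5. Within 200 kb there were 12, 14, and 19 peaks (median 3, 7, and 10), and within 500 kb 22, 45, and 56 (median 9.5, 21, and 23). Fewer peaks within 100 kb than at 2 months were found around 7 of the 84 genes at 10 months and around 3 at 20 months. *Col4a1* and *Col4a2* both count in each of these numbers, with the same peaks. The peaks at the later ages that made up the difference lay in 2 places. One was past the 3′ end of *Col4a1*, on the side of the insulin receptor substrate gene *Irs2* in the RefSeq gene order, where there was no peak within 200 kb at 2 months. There, peaks 14.0 to 26.9 kb past the end of the gene reached 25.9 times the genome mean at 10 months (19.6–33.4) and 29.2 times at 20 months (22.9–36.7), above the promoter of the pair at 20 months. The other was the 3′ part of *Col4a2* and the sequence past its end, on the side of *Rab20*. A pair of peaks inside *Col4a2*, 128 and 129 kb from its start, stood at 15.2 and 16.1 times the genome mean at 10 months and at 11.2 and 15.6 times at 20 months.

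**Figure D2:**
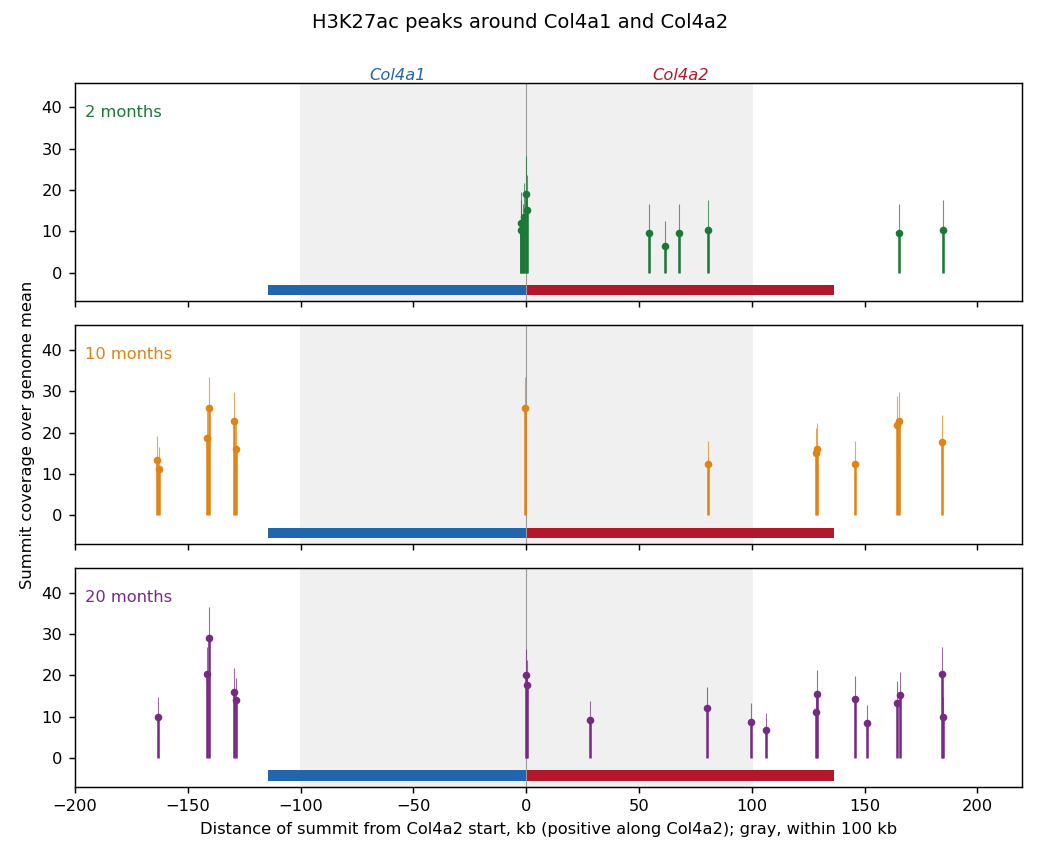
Summit coverage over the genome mean (vertical axis, thin lines are exact 95% Poisson intervals) of each H3K27ac peak against the distance of its summit from the *Col4a2* start in kb, in the 2-, 10-, and 20-month libraries from top to bottom. The blue and red bars are the bodies of *Col4a1* and *Col4a2* and the gray band is the 100-kb limit: the blue bar holds no peak beyond the promoter at any age, and peaks near both outer ends, such as that at 29.2 times the genome mean at 20 months, lie outside the band.

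The shared promoter itself was covered by 6 short peaks at 2 months, by 1 peak at 10 months, and by 2 peaks at 20 months. The 6 peaks at 2 months lay between 11310208 and 11313738 and held 13, 15, 12, 17, 24, and 19 reads at their summits from left to right, or 10.3, 11.9, 9.52, 13.5, 19.0, and 15.1 times the genome mean. The highest, from 11311874 to 11312776, ended 29 bp before the *Col4a2* TSS, and the next highest began 89 bp past the *Col4a1* TSS, so that the starts themselves lay between both summits. At 10 months the peak ran from 11312065 to 11312721 with 58 reads (25.9 times the genome mean, 19.6–33.4). At 20 months the peaks ran from 11312081 to 11312739 with 50 reads (20.0 times, 14.8–26.3) and from 11313107 to 11313382 with 44 reads (17.6 times, 12.8–23.6). At 2 and 20 months, then, peaks were called on both sides of the starts, and at 10 months on the side of the *Col4a1* body alone. Peaks covered 2398, 657, and 935 bp within 2.5 kb of the TSS at the 3 ages.

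The promoter had fewer peaks at the later ages, when a call there required more reads. Around the promoter the local background was 7.84 times the genome mean at 10 months and 6.63 times at 20 months, above that of 92.2% and 89.6% of the peaks in each list, from 792 and 932 reads in 10 kb. A call therefore needed 36 reads at 10 months and 34 at 20 months, or 16.1 and 13.6 times the genome mean, compared with 6.34 times for 5 of the 6 peaks at 2 months. Of the 6 peaks at 2 months, 5 had levels below that needed at 10 months and 4 below that needed at 20 months. Peaks of those ages overlapped 1 and 2 of the 6. The part of the calling background in the number of peaks was not tested.

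**Figure D3:**
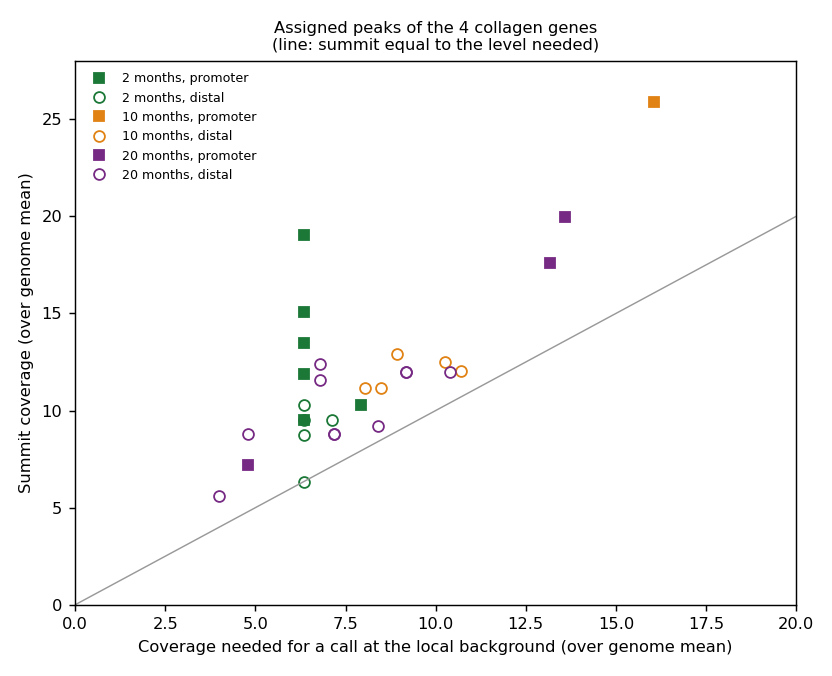
Summit coverage of every peak assigned to the 4 genes (vertical axis, over the genome mean) against the coverage needed for a call at its local background (horizontal axis, over the genome mean), for promoter peaks (filled squares) and distal peaks (open circles) in the 2-, 10-, and 20-month libraries (colors). The gray line marks a summit equal to the level needed: the promoter peaks of *Col4a1* and *Col4a2* stand at a needed level of 13.2 to 16.1 at the later ages, to the right of all peaks at 2 months.

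In the region of the main promoter peak, present at all 3 ages, the level was 1.36 times as high at 10 as at 2 months (0.831–2.29) and 1.05 times as high at 20 as at 2 months (0.633–1.79). All 3 intervals between ages included equality, since 20 over 10 months gave 0.772 (0.518–1.15). The 10598 shared regions, those with peaks in each of the 3 lists, had median ratios of 1.95, 2.08, and 1.06 in the same order. Of these regions, 19.3%, 5.26%, and 3.56% had a lower ratio than the promoter. The upper bound at 20 over 2 months lay below the median of the shared regions. With summit reads scaled to the uniquely mapped reads of each library (RPM), the ratios were 2.04 (1.25–3.43), 1.26 (0.761–2.15), and 0.619 (0.415–0.920). The first and the last excluded equality on this scale alone. RPM leaves out the fragment length, which was 148, 222, and 178 bp at 2, 10, and 20 months and enters the genome mean. By RPM, the medians of all shared regions were 2.92, 2.5, and 0.851, above the ratio of the promoter in each comparison. The 21 shared promoter regions of ECM genes, this one included, had medians nearer to it. These were 1.61, 1.68, and 0.874 on the genome-mean scale and 2.41, 2.02, and 0.701 by RPM. The interval of the promoter at 20 over 2 months held 1.68. Of these 21 regions, 38.1% were higher at 20 than at 10 months on the genome-mean scale.

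Among the 21 ECM genes with a promoter peak at every age, the promoter of *Col4a1* and *Col4a2* shared the second highest level at 2 months with that of *Itgb1*, an integrin gene, and had the eighth highest at 10 months and the eleventh at 20 months. Its ratio of 20 over 2 months was the lowest of the 21, and its ratio of 10 over 2 months the fifth lowest. The median promoter ratios of the 21 genes were 1.53 and 1.58, and the level was higher than at 2 months for 90.5% of them at 10 months and for 100% at 20 months. Both genes count in these ranks with the same peak.

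In the RefSeq promoter windows, with positions on GRCm38.p6, 3 of the 4 genes matched, and *Col4a3* did not. The 250 bases before the start of *Col4a1* (chromosome 8, 11312827 to 11313076) had 74.4% G and C and 31 CpG dinucleotides, and those before *Col4a2* (11312555 to 11312804) had 73.6% and 26. Of all 32851 windows, 94.8% and 90.4% had fewer CpGs. The printed sequences show the overlap of the starts and the promoter elements beside them. The bases that both transcripts share at their starts (chr8:11312805-11312826, *Col4a2* strand) and 30-base stretches from the windows, read along each gene, are given with matches in capitals. Motifs were searched on both strands of all windows. The CCAAT box was held by 33.8% of all windows, and it reads ATTGG on the opposite strand. The GC box GGGCGG, which reads CCGCCC on the opposite strand, was held by 32.7%. The stretch CCCTCCCC was held by 9.69%, the TATA box spelled TATAAA by 12.4%, the AP-1 site spelled TGACTCA by 4.46%, and the E-box spelled CACGTG by 6.02%. The last 3 had no match before either gene. The stretch around the CCAAT box of *Col4a2* overlaps those around the nearer GC box and the CCCTCCCC match. The shared start lies outside the searched windows and holds a GC box of its own. A match describes the letters alone.
Shared start: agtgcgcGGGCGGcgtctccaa
*Col4a2*, CCCTCCCC 13 bases before the start, chr8:11312775-11312804: aatttgttggcgctgccCCCTCCCCtcggc
*Col4a2*, CCAAT 32 bases before the start, chr8:11312760-11312789: cccgaggagctccCCAATttgttggcgctg
*Col4a2*, CCGCCC 48 bases before the start, chr8:11312745-11312774: gacctgagcgcgCCGCCCgaggagctcccc
*Col4a2*, GGGCGG 192 bases before the start, chr8:11312601-11312630: gtggcgcgcccgGGGCGGcaggggaccagc
*Col4a1*, ATTGG 145 bases before the start, chr8:11312955-11312984: gtgcttgcccgggATTGGcgagccaagggg

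Within the *Col4a2* body, 1 distal region was found at all 3 ages. It lay about 80 kb from the start, between 11393084 and 11393585 (mm9), and held 13 reads at 2 months (10.3 times the genome mean, 5.49–17.6), 28 at 10 months (12.5 times, 8.30–18.05), and 30 at 20 months (12.0 times, 8.08–17.1). The level was thus 1.21 times as high at 10 as at 2 months (0.607–2.55), 1.16 times at 20 over 2 months (0.588–2.43), and 0.960 times at 20 over 10 months (0.554–1.67). These intervals held both equality and the medians of all shared regions, so that neither a rise nor its absence was detectable at this depth.

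The other distal regions in the *Col4a2* body within 100 kb of its start were each called at 1 age. At 2 months, peaks 54.0, 61.5, and 67.2 kb from the start had 12, 8, and 12 reads, or 9.52, 6.34, and 9.52 times the genome mean. The weakest of them stood at the lowest level with which any peak of that list was called. At 20 months, peaks at 28.1 and 99.4 kb had 23 and 22 reads (9.19 and 8.79 times). The latter lay just inside the 100-kb limit, and another at 106 kb, with 6.79 times the genome mean, lay outside it. At the shared region a call required 10.3 times the genome mean at 10 months and 9.19 times at 20 months, and of the 3 peaks seen at 2 months only, all stood below the first of these levels and 1 below the second. The level needed where those 3 peaks lay is not known from the lists. The part of the background in their absence from the later lists was not tested.

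The 4 regions with a level at 2 months and at a later age are shown with the distribution of all shared regions. Of the 2 regions of the 4 genes with a peak at all 3 ages, both were higher at 10 and at 20 months than at 2 months, beside 93.5% and 95.8% of all shared regions, and neither was higher at 20 than at 10 months, beside 63%. At least 2-fold higher than at 2 months were 0 of 2 at each later age, beside 47.1% and 54.4%, and at 20 over 10 months 0 of 2, beside 0.17%. The flank of the *Col4a1* and *Col4a2* promoter past the *Col4a1* TSS, with no peak at 10 months, had a ratio of 1.17 at 20 over 2 months (0.667–2.12).

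**Figure D4:**
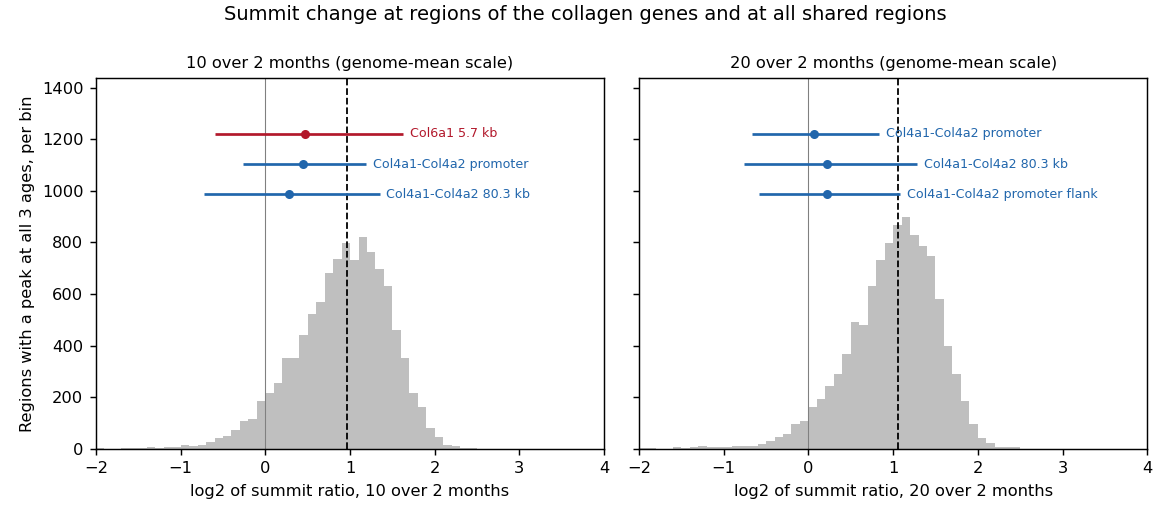
Number of shared regions (vertical axis, gray bars) by the log2 ratio of their levels, at 10 over 2 months (left) and 20 over 2 months (right); the dashed line is the median over 10598 regions. Points with exact 95% intervals, set above the bars at arbitrary height, are the regions of *Col4a1* and *Col4a2* (blue) and *Col6a1* (red): all points lie left of the dashed line, and all intervals but that of the promoter in the right panel reach it or cross it.

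*Col6a1* lies on the minus strand of mm9 chromosome 10, from 76188789 down to 76171537, and had no peak at its promoter or in its 17.3-kb body at any age. The nearest peaks lay upstream, 5.67 kb away at 2 and at 10 months and 6.29 kb away at 20 months. At 2 months this was its only peak within 200 kb, with 11 reads (8.72 times the genome mean, 4.35–15.6). The 10-month peak of the same region, 76194454 to 76194748, had 27 reads (12.0 times, 7.93–17.5), a ratio of 1.38 with an interval of 0.663–3.08. At 20 months, peaks at 6.29 and 7.48 kb had 30 reads each (12.0 times), and no peak was called in the region of the younger ages. Here too the later lists had a calling background above the genome mean, at 4.36 times at 10 months. At 20 months it was 4.51 and 3.75 times, while the 2-month peak was called at the genome mean itself. As the 2-month background was mostly set in another way, these values do not show a change of the surroundings with age.

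The other distal peaks of *Col6a1* were found at the later ages. Downstream, 8.27 and 8.40 kb past the 3′ end, 1 region had 25 reads at 10 months and 29 at 20 months (11.1 and 11.6 times the genome mean), with a ratio of 1.04 (0.587–1.85). Farther on, 61.4 and 61.7 kb from the TSS, 1 region had 25 and 22 reads (11.1 and 8.79 times), with a ratio of 0.788 (0.424–1.46). A peak at 60.7 kb was called at 10 months alone, with 29 reads (12.9 times). At 20 months alone, peaks were called downstream at 81.2 and 82.1 kb (8.79 and 12.4 times) and upstream at 75.9 kb. The upstream one had 14 reads (5.59 times, 3.06–9.38), below the 6.34 times that the 2-month list needed. Of the 9 distal regions of *Col6a1*, 1 had a peak at 2 and 10 months, 2 at 10 and 20 months, 1 at 10 months alone, and 5 at 20 months alone. No distal region of this gene was called at all 3 ages.

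In wider windows, which include the nearest 100 kb, the same order held. Within 200 kb of the *Col6a1* TSS there were 1, 6, and 12 peaks, beside 3, 7, and 10 for the median ECM gene. Within 500 kb there were 7, 24, and 37, beside 9.5, 21, and 23. In the RefSeq gene order, *Col6a2*, which encodes the α2 chain of the same collagen, is the next protein-coding gene on the downstream side, and *Pcbp3* is the next on the upstream side. *Col6a2* is not among the 84 genes and its mm9 position was not used, so that which of the downstream peaks lie nearer to it was not analysed here. The map of both loci sets *Col6a1* beside *Col4a3*.

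**Figure D5:**
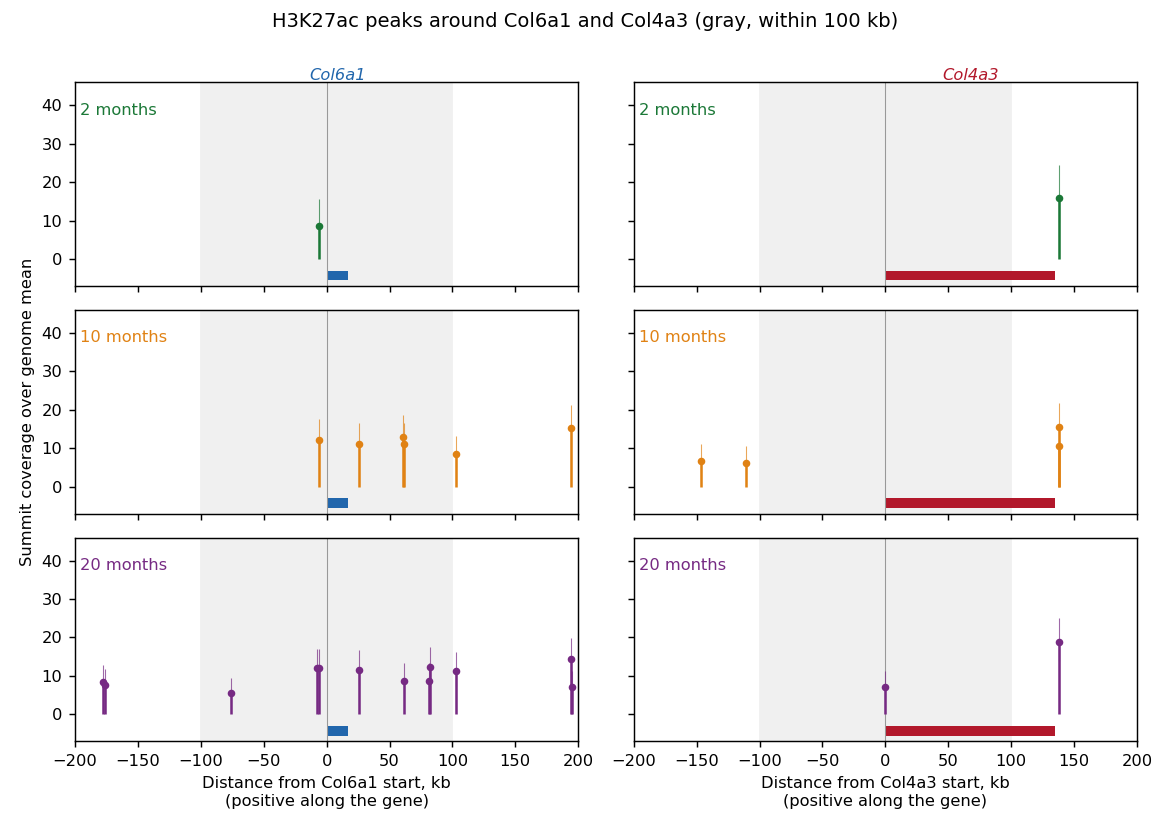
Summit coverage over the genome mean (vertical axis, thin lines are exact 95% Poisson intervals) of each H3K27ac peak within 200 kb of *Col6a1* (left) and *Col4a3* (right), against the distance from the TSS along the gene in kb, in the 2-, 10-, and 20-month libraries from top to bottom. Colored bars are the gene bodies and the gray band is the 100-kb limit: around *Col6a1* the band holds 1, 4, and 7 peaks, and around *Col4a3* it holds 1, at 20 months.

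The promoter window of *Col6a1* differed in composition from those of the type IV pair. The 250 bases before its start had 56.0% G and C and 3 CpG dinucleotides, and 29.0% of all windows had fewer CpGs. It is printed as the promoter without a peak, read along the gene, with the matches to TGACTCA (90 bases before the start) and CCCTCCCC (70 and 38 bases before it) in capitals. None of the other 4 motifs matched.
*Col6a1*, GRCm38.p6, chr10:76726045-76726294, minus strand: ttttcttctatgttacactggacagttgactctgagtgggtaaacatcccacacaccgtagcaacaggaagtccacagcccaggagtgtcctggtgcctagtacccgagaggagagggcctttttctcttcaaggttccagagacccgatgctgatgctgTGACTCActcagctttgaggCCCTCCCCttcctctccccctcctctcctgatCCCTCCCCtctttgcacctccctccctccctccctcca

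*Col4a3* runs on the plus strand of mm9 chromosome 1 from 82583496 to 82718634 and had no peak within 100 kb at 2 or 10 months. At 20 months, 1 peak covered its TSS, from 82583101 to 82583573, with 18 reads (7.19 times the genome mean, 4.26–11.4). It was among the weakest of its library, as 9.86% of the peaks at 20 months had a lower level, and its background was 1.28 times the genome mean. A call there needed 4.79 times the genome mean at 20 months. At a background of the genome mean, a call needed 6.34 times at 2 months and 4.46 times at 10 months. Both lie below the level of this peak and within its interval, and the background at this place at the younger ages is not known from the lists. The part of the calling level in its absence at the younger ages was not tested. The nearest peak lay 138 kb away at 2 months, past the 3′ end of the gene, on the side of *Mff* in the RefSeq gene order. That place, 2.90 kb past the end at 2 and 20 months and 2.47 and 2.91 kb at 10 months, had a peak at every age, with levels of 15.9, 15.6, and 18.8 at the highest summit. At 10 months the nearest peak lay 111 kb away on the other side, that of *Col4a4*, with 6.24 times the genome mean. Within 200 kb there were 1, 4, and 2 peaks (median ECM gene 3, 7, and 10), and within 500 kb 11, 18, and 22 (median 9.5, 21, and 23).

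Promoters of different loci could be compared at 20 months alone, when that of *Col4a1* and *Col4a2* stood at 2.78 times the level of that of *Col4a3* (1.59–5.06), beyond counting error. The strongest distal peaks could not be put in order. At 2 months that in *Col4a2* was 1.18 times as high as that of *Col6a1* (0.489–2.91), and at 10 and 20 months that of *Col6a1* was 1.04 (0.595–1.81) and 1.03 times as high (0.605–1.77). The distal peaks of the 4 genes ranged from 6.34 to 10.3 times the genome mean at 2 months, from 11.1 to 12.9 at 10 months, and from 5.59 to 12.4 at 20 months. None of the 5, 5, and 10 was above the median level of its list, which was 11.1, 15.6, and 14.0.

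By the sum over the 3 ages of the absolute differences in distal peak number, the ECM genes most like *Col6a1* were *Cdh1* (0, 3, and 7 peaks), which encodes E-cadherin, and the laminin gene *Lama1* (2, 4, and 6), both at a sum of 2. At a sum of 3, 7 genes were tied and are not named. Those most like *Col4a1* stood at a sum of 4, and were the hyaluronan receptor gene *Cd44* (1, 2, and 3), the collagenase gene *Mmp13* (2, 3, and 3), and the E-selectin gene *Sele* (1, 1, and 2). *Col4a2* and *Col4a3*, with no distal peak at any age under the nearest-TSS rule, were each tied with 19 genes, the other of this pair included.

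Other ECM genes with roles around these collagens had more distal peaks at 20 than at 2 months when summed by list, though not in every gene. The 4 fibril-forming collagen genes, among them *Col1a1* and *Col3a1*, had 8, 15, and 26 distal peaks at 2, 10, and 20 months, with 2, 3, and 4 of the 4 genes having any. The 6 laminin genes, whose products form the other network of the basement membrane, had 20, 41, and 58, with 4, 5, and 6 genes having any. The receptor genes *Itga2*, *Itgb1*, and *Cd44* had 2, 7, and 9. The genes of the proteases *Mmp2* and *Mmp9*, which cleave type IV collagen, and of 3 TIMP inhibitors of such proteases had 24, 31, and 42, with 3, 5, and 4 of 5 genes having any. All 4 of the fibril-forming genes, all 6 of the laminin genes, all 3 of the receptor genes, and 3 of the 5 protease and inhibitor genes had more at 20 than at 2 months. Of the 4 genes described here *Col6a1* alone did under the nearest-TSS rule within 100 kb. With the 200-kb limit *Col4a1* (6, 7, and 12) and *Col4a2* (0, 6, and 5) had more as well. The counts at the 100-kb limit stand beside 57 of the 84 ECM genes, and those of genes having any distal peak beside 48.8%, 67.9%, and 75%. No share of the ECM genes at the 200-kb limit is given here. None is called particular to its list.

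The ECM list holds a few markers of other cell types. Of all 84 genes, 48.8%, 67.9%, and 75% had a distal peak at 2, 10, and 20 months. Their distal peaks numbered 194, 348, and 458, and no count below is called particular to a cell type. The 5 endothelial genes had 14, 20, and 27 distal peaks at 2, 10, and 20 months, with 3, 4, and 4 having any. They did not share 1 course: *Icam1* had 2, 9, and 12, *Pecam1* had 11, 9, and 11, and *Selp* had no peak at any age. More distal peaks at 20 than at 2 months were found for 3 of the 5. The 5 leukocyte genes had 30, 42, and 46, with 3, 4, and 4 having any. The 4 nervous system genes had 0, 0, and 1, and *Cntn1*, *Ncam2*, and *Ctnna2* had no peak at any age. The 2 epithelial genes had 1, 4, and 8. The part of a changing cell composition in the counts of the collagen genes was not tested.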

How the data were processed

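H3K27ac ChIP-seq peaks were analysed in TA muscle at 3 ages, with 1 library per age. Per the submitters' processing notes, the authors aligned reads to mm9 with Bowtie2 (version not given in the sources used here) and called peaks with MACS2 2.1.0. Whether a control library was used is not given in the sources used here. For each peak the deposited lists give the fold of its summit over background, the −log10 of its p and q, and a score, all computed by the authors. The score was not used. Gene positions and uniquely mapped reads are those the study lists, since coverage was not used here.

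Summit reads and background were solved for each peak from the deposited fold and −log10 p, with a tolerance of 0.001 in −log10 p. On data simulated with the same formulas this returned the reads of 100% of 5000 peaks per library. This checks the solving alone, not how the deposited values were computed. At 10 and 20 months 1 peak each was not solved and was left out of levels. The genome mean is uniquely mapped reads times fragment length (the smallest peak width) over the MACS2 mouse genome size. The level needed for a call is the smallest number of reads that reaches the smallest −log10 p of the list at the local background. Regions are peaks that touch or share at least 1 bp, and a shared region has a peak at all 3 ages. Values were computed in Python 3.11.15 with scipy 1.17.1, pandas 2.3.3, and numpy 2.4.6 and drawn with matplotlib 3.10.9. Ratios have exact conditional binomial 95% intervals and levels exact Poisson ones.

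The rule for named genes took all 4 members, up to 3 genes of each list, and the genes nearest in distal peak number. The members and lists were chosen with earlier results of these data known. Alternatives were other distance limits, other assignment rules, stricter or equal lists, merged peaks within 1 kb, a minimum width, and other scales. RefSeq promoter windows and gene order (GRCm38.p6) were joined by symbol, and no coordinate was converted between builds.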

Additional observations from a re-analysis of the deposited data

How the results depend on the processing

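The counts of distal peaks, 5, 5, and 10 at 2, 10, and 20 months, depended on the distance limits. With a 50-kb limit they were 1, 2, and 4, from 1 gene at 2 months and 1 at 10 months, and with a 200-kb limit 8, 23, and 30, from 4 genes at 10 months and 4 at 20 months. With an inner limit of 1 kb there were 9 at 2 months, and also 9 when a peak was counted for every ECM gene in reach. Keeping the 50% of peaks with the smallest q left 0, 0, and 3 distal peaks, from 0 genes at 2 and 0 at 10 months, and 0 genes with a promoter peak at 20 months. Lists of equal length by q left the 5 distal peaks of 2 months and 0 from 0 genes at 10 and at 20 months, and 0 promoter genes at 20 months. A minimum width of 222 bp left 3 distal peaks from 1 gene at 2 months. Of 2 alternatives chosen after seeing the data, a summit minimum of 10 times the genome mean left 1 distal peak from 1 gene at 2 months and 5 peaks at 20 months, and assigning promoter peaks to the nearest TSS alone left 1 promoter gene at 10 months. The other 73 values for the 4 genes together stayed within 1.5 times the count or within the interval of the ratio. *Col4a1* had fewer distal peaks at 10 than at 2 months in the main count and under 7 of 12 alternatives, and not with either other outer limit, the gene-body rule, the 50% of peaks, or the summit minimum. *Col6a1* had more at 10 than at 2 months in the main count and under 10 of 12 alternatives, and more at 20 than at 2 months under 11. It had 1, 0, and 0 at the 3 ages in lists of equal length and 0, 0, and 2 in the 50% of peaks.

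No paired analysis was possible because each age has 1 library, and none was left out for the same reason. Weak peaks, of 8 to 31 reads at distal summits, set the limit: the upper and lower bounds of the ratios at single regions differ by 2-fold or more. The 3 ages also differ in depth, fragment length, and calling background, which cannot be told apart from age.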
